A study of Homo sapiens with 12 samples.

Results

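The replication-dependent histone genes are the members of the HIST1, HIST2, HIST3 and HIST4 clusters that encode the linker histone H1 and the core histones H2A, H2B, H3 and H4. Of 74 rows with such a symbol, pseudogenes left out by symbol, 42 had a summed count of at least 50 over the 12 libraries, and these 42 of the 57353 rows of the table are described here. They comprised 3 H1, 11 H2A, 14 H2B, 6 H3 and 8 H4 genes. The summed count chose them, so it is a description and carries no test. Just inside the limit were HIST1H2AL and HIST1H4K, with 55 counts each, and just outside it were HIST2H2BF with 46 counts and HIST1H3F with 41. RefSeq placed 37 members on chromosome 6, 4 on chromosome 1 (HIST2H2AB, HIST2H2AC, HIST2H2BD and HIST2H2BE) and HIST4H4 on chromosome 12. It calls HIST2H2BD a pseudogene under the name H2BC19P, although its symbol in the table does not.

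The cells were HepG2, a line from a human liver cancer, labelled wild type. They were given 10 µM sorafenib, a multikinase inhibitor, for 12 h, or the vehicle DMSO, and all cultures received cycloheximide, which holds ribosomes on mRNA, just before lysis. Each lysate, normally from a pair of dishes combined, was spun through a sucrose gradient and pooled into a light part (low-molecular complexes, free 40S and 60S subunits and 80S ribosomes) and a polysome part. The groups were sorafenib light, vehicle light, sorafenib polysome and vehicle polysome, with 3 libraries each from 6 cultures. Libraries of one treatment that share a number came from the same culture. All values come from a single cell line, and no library of unfractionated RNA was analysed here. A larger amount of RNA per cell and a shift of RNA between pools can therefore not be told apart.

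Replication-dependent histone genes are transcribed mainly in S phase, when new DNA is packed into nucleosomes. Most of their mRNAs have no introns and no poly(A) tail. They end in a conserved stem-loop that is bound by SLBP, the stem-loop binding protein, and this end is cut with the help of the U7 small nuclear RNP, which holds LSM10 and LSM11. SLBP also takes part in the translation of these mRNAs on polysomes, and their decay at the end of S phase or when replication stops involves UPF1, addition of uridines and the exonuclease ERI1. Some genes of the family are known to give polyadenylated transcripts as well. The replacement histones, such as H3F3B and H2AFZ, are encoded outside the clusters and their mRNAs are mostly polyadenylated, though not in every gene exclusively.

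The promoters of a few members are shown, with each histone type represented. Among them HIST1H2AC and HIST1H2BC share upstream sequence, and their values, given below, differ. RefSeq (GRCh38.p14) gave 43 windows of 200 bases upstream of the start for 39 members. HIST1H3J, HIST1H4C and HIST2H2BD have none here. Capitals mark every match, on either strand, to CCAAT (the CCAAT box), TATAAA (the TATA box), ATTTGCAT (the octamer bound by POU-domain factors) and AAACACA (the H1 box). The windows lie at chr6:26056471-26056670 on the minus strand for HIST1H1C, chr1:149887966-149888165 on the minus strand for HIST2H2AB, chr6:26123972-26124171 on the plus strand for HIST1H2AC and chr6:26123927-26124126 on the minus strand for HIST1H2BC. They lie at chr1:149886683-149886882 on the minus strand for HIST2H2BE, chr6:26032100-26032299 on the minus strand for HIST1H3B and chr6:26027284-26027483 on the minus strand for HIST1H4B.
HIST1H1C: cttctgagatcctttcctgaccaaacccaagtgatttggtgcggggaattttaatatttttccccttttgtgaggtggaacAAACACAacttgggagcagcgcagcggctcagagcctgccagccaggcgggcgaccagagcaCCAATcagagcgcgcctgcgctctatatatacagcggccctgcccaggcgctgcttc
HIST2H2AB: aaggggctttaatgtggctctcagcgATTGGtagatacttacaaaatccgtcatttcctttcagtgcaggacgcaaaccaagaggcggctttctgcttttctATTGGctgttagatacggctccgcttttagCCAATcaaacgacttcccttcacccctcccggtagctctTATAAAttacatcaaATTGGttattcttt
HIST1H2AC: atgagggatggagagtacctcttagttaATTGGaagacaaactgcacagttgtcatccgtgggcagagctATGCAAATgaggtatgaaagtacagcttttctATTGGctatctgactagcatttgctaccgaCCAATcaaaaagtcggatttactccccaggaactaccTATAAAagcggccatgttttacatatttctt
HIST1H2BC: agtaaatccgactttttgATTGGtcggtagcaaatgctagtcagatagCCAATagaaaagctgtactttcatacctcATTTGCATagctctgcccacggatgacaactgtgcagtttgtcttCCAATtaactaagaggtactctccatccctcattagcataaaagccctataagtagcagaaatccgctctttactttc
HIST2H2BE: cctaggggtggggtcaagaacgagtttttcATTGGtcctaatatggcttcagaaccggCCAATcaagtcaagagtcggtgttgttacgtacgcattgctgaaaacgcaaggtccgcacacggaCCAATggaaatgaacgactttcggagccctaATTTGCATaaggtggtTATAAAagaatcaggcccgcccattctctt
HIST1H3B: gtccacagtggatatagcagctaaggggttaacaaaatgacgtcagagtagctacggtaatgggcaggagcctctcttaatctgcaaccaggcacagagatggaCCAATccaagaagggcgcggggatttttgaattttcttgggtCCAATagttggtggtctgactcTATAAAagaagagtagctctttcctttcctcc
HIST1H4B: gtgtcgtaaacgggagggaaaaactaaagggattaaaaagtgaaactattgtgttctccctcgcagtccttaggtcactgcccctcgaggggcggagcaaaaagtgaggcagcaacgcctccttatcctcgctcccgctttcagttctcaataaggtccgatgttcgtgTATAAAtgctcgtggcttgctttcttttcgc

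CCAAT stood in 36 of the 43 windows (83.7%), against 28% of 35116 RefSeq windows of the same length. Every window of an H1, H2A, H2B or H3 member held it, and 0 of 7 H4 windows did. TATAAA stood in 26 windows (60.5%, against 8.59% of all), and ATTTGCAT in 18 (41.9%, against 1.31%). The octamer was in 11 of 15 H2B windows, 6 of 11 H2A windows and 1 of 7 H3 windows. The H3 window that held it belongs to HIST1H3D and is the same stretch, chr6:26199294-26199493, as the HIST1H2AD window, so it was counted in both types. The windows of HIST1H2BD nearly coincide, as do those of HIST1H2BK, and windows of neighbouring genes overlap. The windows are therefore not independent. AAACACA was in each of the 3 H1 windows and in no window of another type, which made 6.98% of member windows, against 3.76% of all. None of the searched motifs contains another, and a match is a description of sequence only.

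The table holds raw gene counts as the authors deposited them. Library totals were 511065 to 4989312 counts in the sorafenib light group and 4769383 to 13336689 in the others, so members in the sorafenib light libraries were measured with the least precision. Replicates correlated at 0.80 to 0.93 in that group and at 0.95 to 0.99 in the others, across genes on a log scale. In the labels the names of sorafenib polysome library 3 and vehicle light library 1 both hold S1. No source used here says whether sorafenib polysome library 3 was sequenced apart. Sorafenib light library 2 was the shallowest, had the highest share of member counts and stood farthest from its replicates. Sorafenib light libraries 1 and 2 are called the shallow libraries below, and the counts of calls that rest on them are given also without them, with library 3 as the only sorafenib light library, as are the named members that then lose their call. The hepatocyte markers ALB, APOA1 and SERPINA1 had 1495 or more counts in each library, whereas every marker of the fibroblast and endothelial lists had at most 12. Of the leukocyte markers PTPRC had at most 6 counts and CD3E at most 3, and LYZ and CD68 had 101 to 6747 and 16 to 406. The 6 fibroblast markers summed to 1.40 to 29.9 in counts-per-million scaled by TMM, which sets a common level for most genes (TMM-CPM), in sorafenib light, against 1.71 to 4.15 in vehicle light. The 3 endothelial markers summed to 1.76 to 20.6 in sorafenib light, against 0.609 to 1.11 in vehicle light, and both sums were highest in sorafenib light library 2. Their part in the results was not tested.

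Histone mRNAs took a larger share of the light pool after sorafenib and no larger share of the polysome pool. The 42 members took 656, 1368 and 396 CPM (counts-per-million of the library total, with no TMM scaling) in the sorafenib light libraries 1, 2 and 3, against 89.9, 55.5 and 47.5 in the vehicle light libraries. In the polysome pool they took 105, 160 and 206 CPM with sorafenib, against 135, 407 and 196 with vehicle. The groups were apart in the light pool and overlapped in the polysome pool. The means were 807 ± 503 for sorafenib light and 64.3 ± 22.5 for vehicle light, then 157 ± 50.6 for sorafenib polysome and 246 ± 143 for vehicle polysome (SD, n = 3 each). The members were chosen with results of these data known, so these shares carry no p. The order of the sorafenib light libraries by member share was the reverse of their order by depth. The lowest of them, which was the deepest, was still above every vehicle light library.

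Each histone type was higher in the sorafenib light libraries. H1 took 119, 225 and 77.8 CPM there, against 15.3, 8.61 and 6.90 in vehicle light. H2A took 156, 346 and 97.8, against 16.8, 13.5 and 13.8. H2B took 118, 192 and 79.0, against 22.9, 13.9 and 13.7. No type overlapped between the 2 light groups. H3 took 148, 364 and 97.4 with sorafenib, against 16.7, 8.70 and 8.12 with vehicle. H4 took 114, 241 and 44.3, against 18.3, 10.7 and 5.01. After TMM scaling the mean summed level was 12.5 times higher for H3, 9.55 times for H1, 9.42 times for H2A, 8.06 times for H4 and 5.43 times for H2B. The lowest sorafenib light library exceeded the highest vehicle light library by 4.32 times for H2A and H3 and by 1.79 times for H4.

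On polysomes the types did not move alike in these sums. H1 took 24.0, 37.0 and 54.2 CPM with sorafenib, against 20.5, 82.0 and 34.9 with vehicle. H2A took 36.6, 64.9 and 55.1, against 32.0, 65.4 and 49.3. H4 took 7.49, 13.3 and 26.2, against 35.8, 77.8 and 34.7. Of the 5 types, H4 alone had all 3 sorafenib polysome libraries below all 3 vehicle polysome libraries. H2B took 20.4, 25.8 and 32.3 with sorafenib, against 24.8, 79.5 and 36.6, and H3 took 17.0, 18.9 and 38.8, against 22.2, 103 and 40.9. Vehicle polysome library 2 was the highest of its group for each of the 5 types.

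**Figure D1:**
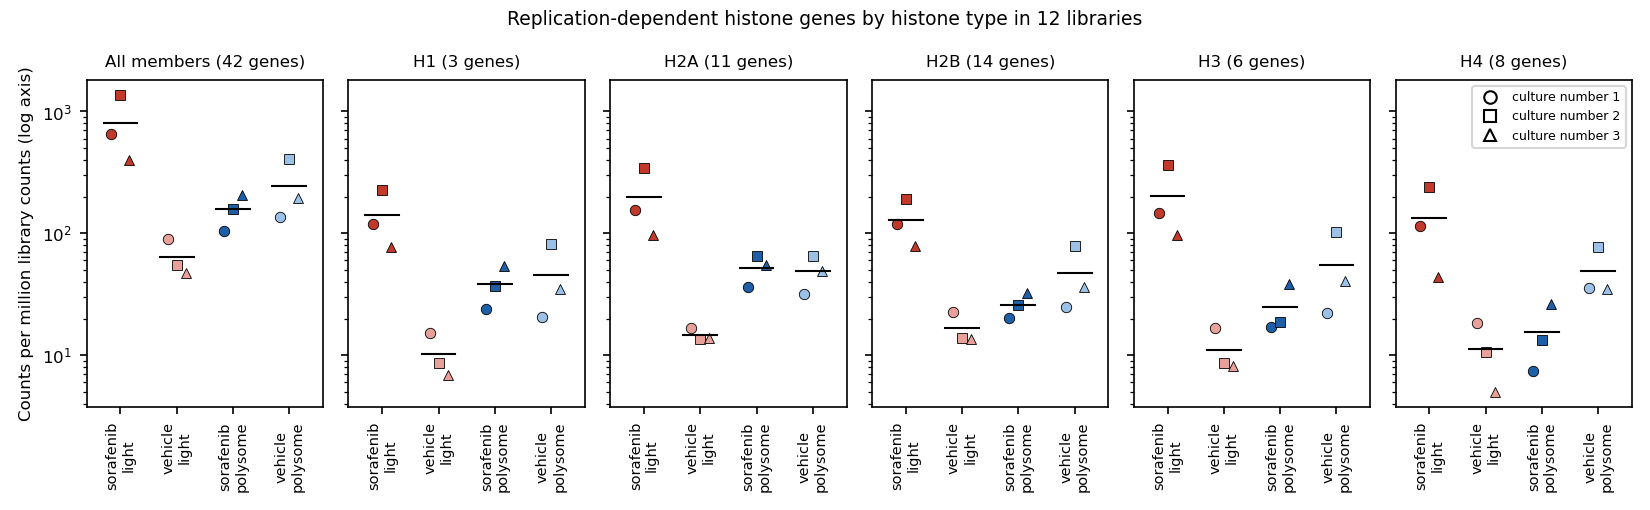
CPM over the library total, summed over the members of each histone type, on a log axis for each of the 12 libraries, with points for libraries and bars for group means. In each type the 3 sorafenib light libraries lie above the 3 vehicle light libraries, and for H4 the sorafenib polysome libraries lie below the vehicle polysome libraries.

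The make-up of the histone counts also differed between groups. H4 made up 9.36% ± 2.93 of member counts in sorafenib polysome libraries and 21.1% ± 4.70 in vehicle polysome libraries (SD, n = 3 each). H2A made up 34.0% ± 6.98 and 21.6% ± 4.85, and H1 24.0% ± 1.90 and 17.7% ± 2.50, in the same groups. The H4 and H2A shares of the single libraries did not overlap between these groups, nor did those of H1. In the light pool H2B made up 17.3% ± 3.02 of member counts with sorafenib and 26.4% ± 2.06 with vehicle, and H3 24.6% ± 2.03 and 17.1% ± 1.44. HIST1H2AC alone held 25.6%, 34.1% and 13.5% of member counts in the sorafenib polysome libraries, against 15.6%, 5.36% and 13.5% in the vehicle polysome libraries. These shares are descriptions over the counts of chosen genes, were not divided by gene length and were not tested.

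The first comparison asked which members changed in the light pool under sorafenib, with edgeR's quasi-likelihood test over all 14955 genes that passed the low-count filter and Benjamini-Hochberg adjustment at 0.05. Of the 42 members 36 rose (85.7%), where 11.7% of all genes tested rose, and 1 fell, where 17.7% of all did. The members' median log2 fold change was 3.41, against -0.12 over all genes tested. All 3 H1 and all 11 H2A members rose, with 10 of 14 H2B, 5 of 6 H3 and 7 of 8 H4 members. The rises ran from 1.56 to 5.88 on the log2 scale, with SEs of 0.31 to 1.23. In 36 members every sorafenib light library was above every vehicle light library, a pattern that 14.5% of the 15170 rows with at least 50 counts showed, and in 1 member every one was below, as in 24.9% of rows. In library 3 alone, 38 members were above every vehicle light library.

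All 42 members passed the filter, but 11 passed only with the sorafenib light libraries counted. Such a member had to be at the filter's level there, and for those that are high there a difference was built in. They were HIST1H1B, HIST1H2AJ, HIST1H2AL, HIST1H2BB, HIST1H2BH, HIST1H2BL, HIST1H2BM, HIST1H2BO, HIST1H4J, HIST1H4K and HIST4H4. Of the 31 others 28 rose and 1 fell. Without both shallow libraries 22 of 42 members rose and 0 fell, by the same edgeR test, where the 1 sorafenib light library left takes its spread from the other groups (30 and 2 at an unadjusted p under 0.05), and the median was 2.94. The rises of HIST2H2AC, HIST1H2AE, HIST1H2BD, HIST1H3B, HIST1H3D and HIST1H4E, described below, still passed, at 3.30, 3.21, 3.78, 4.28, 3.10 and 2.94, whereas 9 of the 20 calls among the members named by rule were lost.

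**Figure D2:**
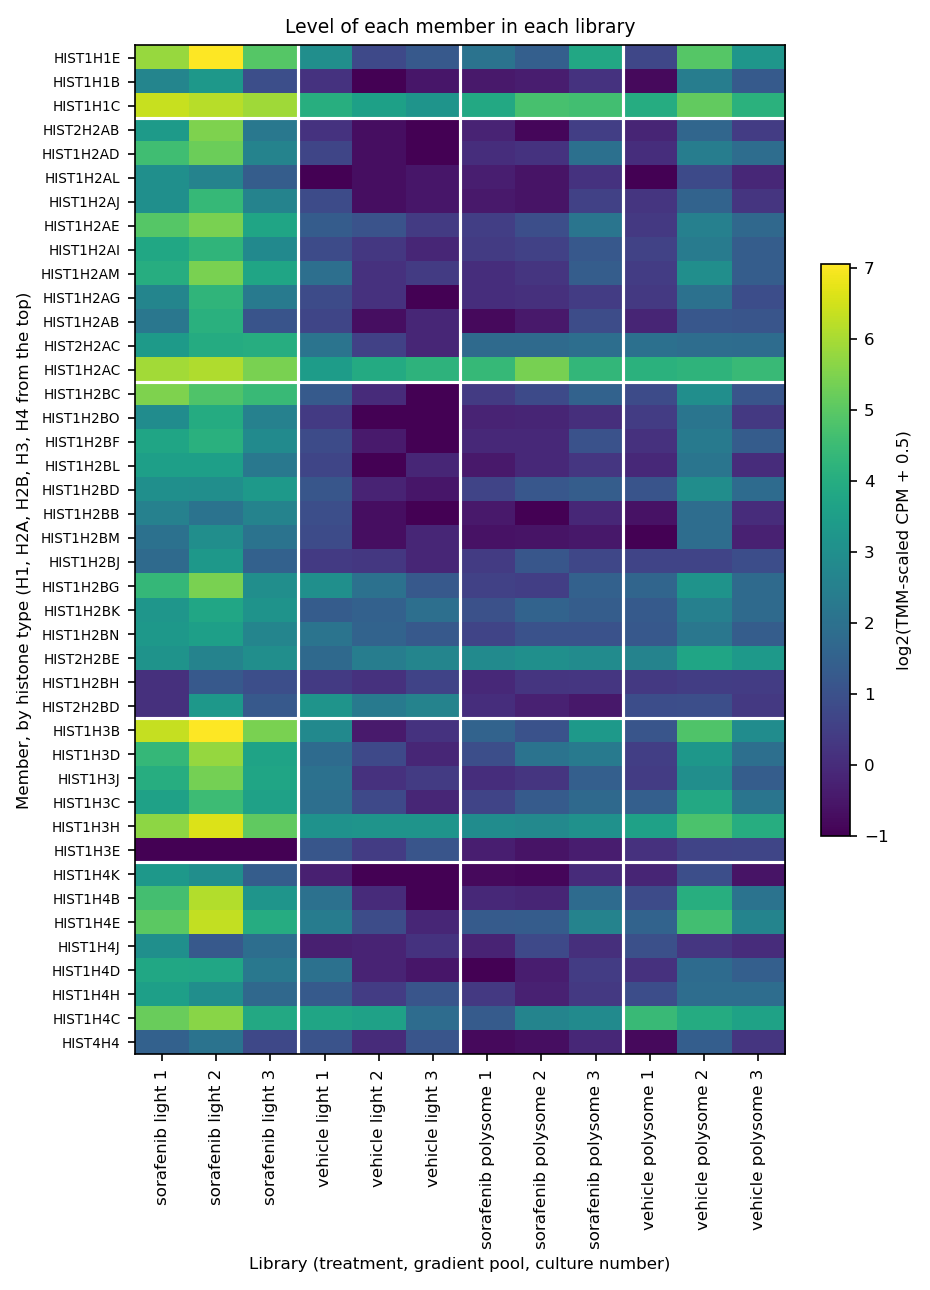
Log2 of TMM-CPM plus 0.5 for the 42 members (rows, by type) in the 12 libraries (columns, by group). Most rows are highest in the sorafenib light columns, and HIST1H3E, HIST2H2BD and HIST2H2BE are among the rows that are not.

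Linker histones bind DNA between nucleosomes. HIST1H1C, the H1 gene with the most counts (RefSeq H1-2), had 82.8, 72.9 and 59.3 TMM-CPM in sorafenib light, against 15.9, 11.3 and 8.51 in vehicle light. Its log2 fold change was 2.57 with an SE of 0.34 (3 libraries per group), it passed the edgeR test at an adjusted p = 4.86e-05, and the groups were far apart. Without the shallow libraries its log2 fold change was 2.46. HIST1H1E (H1-4) had 55.8, 133 and 29.9 TMM-CPM in sorafenib light, against 7.48, 1.22 and 1.87 in vehicle light. Its rise of 4.23 ± 0.92 was larger and had a larger SE, and without the shallow libraries 3.25 missed the threshold (edgeR adjusted p = 0.0525). HIST1H1B (H1-5) was counted 10, 5 and 6 times in sorafenib light, against 4, 0 and 1 times in vehicle light libraries of larger totals. Its log2 fold change was 3.95 ± 1.23, and 2.50 without the shallow libraries (edgeR adjusted p = 0.303).

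H2A forms dimers with H2B at the nucleosome's outer faces. HIST1H2AC, the member with the most counts, had 61.1, 67.3 and 42.5 TMM-CPM in sorafenib light, against 10.5, 14.6 and 17.8 in vehicle light. It rose by 1.95 ± 0.31 on the log2 scale (edgeR adjusted p = 0.000238), the smallest rise among H2A members, and by 1.73 without the shallow libraries. HIST2H2AC had 9.98, 15.0 and 15.6 TMM-CPM, against 3.82, 0.975 and 0.415, and rose by 2.93 ± 0.51. Library 3, the deepest, was its highest sorafenib light library. HIST1H2AE had 29.9, 43.0 and 12.8 TMM-CPM, against 2.07, 1.58 and 0.830, and rose by 4.08 ± 0.66. HIST2H2AB had 9.98, 44.9 and 4.20 TMM-CPM, against 0.636, 0.122 and 0, and its log2 fold change of 5.88 ± 1.11 was the highest of the members. That value depends on few counts in vehicle light (4, 1 and 0) and was 4.10 without the shallow libraries. HIST1H2AL, which just entered by its summed count, had 13, 3 and 9 counts in sorafenib light, against 0, 1 and 1 in vehicle light, and its rise missed the threshold without the shallow libraries (edgeR adjusted p = 0.0517).

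HIST1H2BC, an H2B gene, had 45.2, 28.1 and 21.7 TMM-CPM in sorafenib light, against 1.91, 0.487 and 0 in vehicle light. It rose by 5.23 ± 0.73 on the log2 scale (edgeR adjusted p = 7.32e-05), and by 4.85 without the shallow libraries. Library 1, not library 2, was its highest sorafenib light library. HIST1H2BG had 20.0, 43.0 and 7.47 TMM-CPM, against 7.64, 3.53 and 1.87. Its lowest sorafenib light value thus lay just below the highest vehicle light value, and its rise of 2.16 ± 0.62 came to 0.92 without the shallow libraries (edgeR adjusted p = 0.401). HIST1H2BD had 7.63, 7.48 and 9.81 TMM-CPM, against 1.75, 0.366 and 0.207, and rose by 3.44 ± 0.68.

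Other H2B genes stood apart from the rest of the family. HIST2H2BE had 8.22, 5.61 and 7.47 TMM-CPM in sorafenib light, against 2.86, 4.87 and 5.81 in vehicle light. It did not pass the test at 0.73 ± 0.39 (edgeR adjusted p = 0.169), and its groups overlapped. HIST1H2BH had 0.587, 1.87 and 1.40 TMM-CPM, against 0.796, 0.609 and 1.04, on 1 to 6 counts a library. HIST1H2BM, with 3.52, 7.48 and 3.74 TMM-CPM, against 1.27, 0.122 and 0.415, had a log2 fold change of 2.85 that narrowly missed the threshold (edgeR adjusted p = 0.0534). HIST2H2BD, the pseudogene of RefSeq, was counted 1, 5 and 8 times in sorafenib light, against 53, 36 and 27 times in vehicle light. Its levels of 0.587, 9.35 and 1.87 TMM-CPM spread around the vehicle levels of 8.43, 4.39 and 5.60, and its log2 fold change was -1.33 ± 0.65.

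H3 and H4 form the tetramer at the nucleosome's core. HIST1H3H had the smallest p of the members in the light pool. It had 51.1, 99.1 and 33.9 TMM-CPM in sorafenib light, against 8.11, 8.53 and 8.51 in vehicle light. It rose by 2.75 ± 0.36 on the log2 scale (edgeR adjusted p = 4.66e-05), and by 2.17 without the shallow libraries. HIST1H3B had 80.4, 131 and 42.7 TMM-CPM, against 6.52, 0.244 and 0.622, and rose by 5.02 ± 0.96. Vehicle light library 1 was far above its replicates for this gene, as it was for most members. HIST1H3D had 20.0, 54.2 and 12.4 TMM-CPM, against 3.02, 1.22 and 0.415, and rose by 3.95 ± 0.76. HIST1H3J and the H2A gene HIST1H2AM had counts that differed by at most 1 in every library, so reads may be shared between them and their values are not independent.

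HIST1H3E was the exception among H3 genes. It had 0 counts in each sorafenib light library, against 11, 7 and 8 in vehicle light. It was at least 2.93-fold lower in sorafenib light, with a floor of 3 counts over that group, and it was the member that fell by the edgeR test (adjusted p = 0.0158, and 0.0512 without the shallow libraries). The fitted log2 fold change of a gene at 0 depends on the prior count and is not used. The members' median stayed at 3.41 with this gene at its bound.

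Among H4 genes, HIST1H4C had 37.0, 48.6 and 14.0 TMM-CPM in sorafenib light, against 12.9, 11.7 and 3.11 in vehicle light. It rose by 1.66 ± 0.51 on the log2 scale (edgeR adjusted p = 0.0191), with little distance between the groups, and its value was 0.72 without the shallow libraries (adjusted p = 0.448). HIST1H4E had 32.3, 78.6 and 15.4 TMM-CPM, against 4.77, 1.34 and 0.415, and rose by 4.03 ± 0.83. HIST1H4B had 24.7, 69.2 and 8.64 TMM-CPM, against 3.50, 0.487 and 0, and rose by 4.40 ± 1.05, or 2.82 without the shallow libraries (adjusted p = 0.135). HIST1H4H had 11.2, 7.48 and 2.80 TMM-CPM, against 1.91, 0.853 and 1.66, and rose by 2.18 ± 0.62, or 1.11 without them (adjusted p = 0.292). HIST1H4K, at the lower limit of counts, was counted 16, 4 and 9 times in sorafenib light, against 2, 0 and 0 in vehicle light, and its rise was also lost without them (adjusted p = 0.0527). HIST4H4, the lone member on chromosome 12, had 2.35, 3.74 and 1.17 TMM-CPM, against 1.59, 0.487 and 1.66, with overlapping groups and a log2 fold change of 0.66 (edgeR adjusted p = 0.642).

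The libraries of a group kept much the same order from gene to gene. Sorafenib light library 2 was the highest of its group for 30 of 42 members and library 3 the lowest for 33. Vehicle light library 1 was the highest of its group for 34 members. Sorafenib polysome library 3 was the highest for 34, and vehicle polysome library 2 the highest and library 1 the lowest for 35 and 34. As a description over the 12 libraries, each member's deviation from its group mean was set against that of the other members. The correlation reached 0.97 for HIST1H2BN, 0.96 for HIST1H3D and 0.96 for HIST1H2AI, which share libraries and depth. It was -0.02 for HIST1H2AC, 0.06 for HIST2H2BE and -0.30 for HIST1H4J.

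In the polysome pool the question was which members changed among the RNAs engaged by several ribosomes. By the same edgeR test 10 of 42 members fell (23.8%), where 28.8% of all genes tested fell, so this count is not a result about the members. None rose, where 20.9% of all genes did, and 0 rose also at an unadjusted p under 0.05 and by DESeq2, with 15 falling at that unadjusted p. The median log2 fold change was -1.35, against -0.26 over all genes tested, but it was -0.43 without vehicle polysome library 2 (-0.25 over all genes) and -2.06 without sorafenib polysome library 3 (-0.29 over all genes). The genes that fell were HIST1H1B, HIST1H2BG, HIST2H2BD, HIST1H3C, HIST1H3E, HIST1H3H, HIST1H4B, HIST1H4C, HIST1H4D and HIST1H4H. Thus 4 of 8 H4 members fell, with 3 of 6 H3, 2 of 14 H2B, 1 of 3 H1 and 0 of 11 H2A members. Of these 10 genes 8 rose in the light pool. The fall on polysomes lost its call under 22 of 30 alternatives for HIST1H3E, 20 of 31 for HIST2H2BD and 14 of 32 for HIST1H2BG. HIST1H3H and HIST1H4H kept theirs under all 33 and 32. In 9 members every sorafenib polysome library was below every vehicle polysome library, where 34.9% of rows with at least 50 counts were, and in 0 members above, where 25.0% were. The count of falls moved with the library left out: to 20 without vehicle polysome library 1, to 3 without vehicle polysome 2, vehicle light 2, sorafenib light 1 or sorafenib polysome 2, and to between 4 and 6 without sorafenib polysome 1, sorafenib light 2 or 3, or vehicle light 3. It also moved with the scaling, to 3 with TMM within each fraction.

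HIST1H3H had 7.02, 6.36 and 7.91 TMM-CPM in sorafenib polysomes, against 11.8, 26.8 and 15.6 in vehicle polysomes. It fell by 1.32 in log2 units (SE 0.33 from 3 libraries per group, edgeR adjusted p = 0.00261), and the groups were apart. HIST1H4C had 1.96, 5.67 and 6.78 TMM-CPM, against 21.5, 15.1 and 11.9, and fell by 1.74 (SE 0.46, edgeR adjusted p = 0.0045). HIST1H4H had 0.755, 0.344 and 0.777 TMM-CPM, against 1.39, 3.19 and 3.21, and fell by 2.03 (SE 0.57). Both of these H4 genes were lower in each sorafenib polysome library than in any vehicle polysome library. HIST1H4B had 0.453, 0.401 and 3.04 TMM-CPM, against 1.31, 16.1 and 3.72. Its groups overlapped, although it passed the test at -2.35 ± 0.92 (edgeR adjusted p = 0.0403), and 18 of 32 alternatives lost that call. HIST1H1B had the lowest log2 fold change of the members, -2.41 ± 0.94, with 0.226, 0.287 and 0.635 TMM-CPM, against 0.0770, 4.78 and 1.94. Its call was lost under 24 of 31 alternatives, and without the shallow libraries the adjusted p was 0.0678 for HIST1H1B and 0.0701 for HIST1H4B.

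The H1 and H2A members with the most counts did not pass the test on polysomes. HIST1H1C had 14.2, 25.8 and 24.1 TMM-CPM with sorafenib, against 15.5, 34.6 and 17.3 with vehicle, a log2 fold change of -0.05 ± 0.31 (edgeR adjusted p = 0.909). HIST1H2AC had 20.4, 41.7 and 19.8 TMM-CPM, against 17.3, 18.4 and 21.6, a log2 fold change of 0.52 ± 0.28 (adjusted p = 0.137). It was the highest of the members in this comparison, and its groups overlapped. Under 16 of 33 alternatives it passed the test as a rise. HIST2H2AC had 2.94, 2.92 and 3.25 TMM-CPM, against 3.47, 3.19 and 3.13. For this gene the 2 polysome groups were nearly level, with a log2 fold change of -0.11 ± 0.43. HIST1H1E had 3.70, 2.23 and 13.6 TMM-CPM, against 1.16, 29.9 and 8.96, and HIST1H3B had 2.49, 1.55 and 9.81, against 1.69, 28.0 and 7.02. In both genes the spread between vehicle polysome libraries was larger than the difference between groups.

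**Figure D3:**
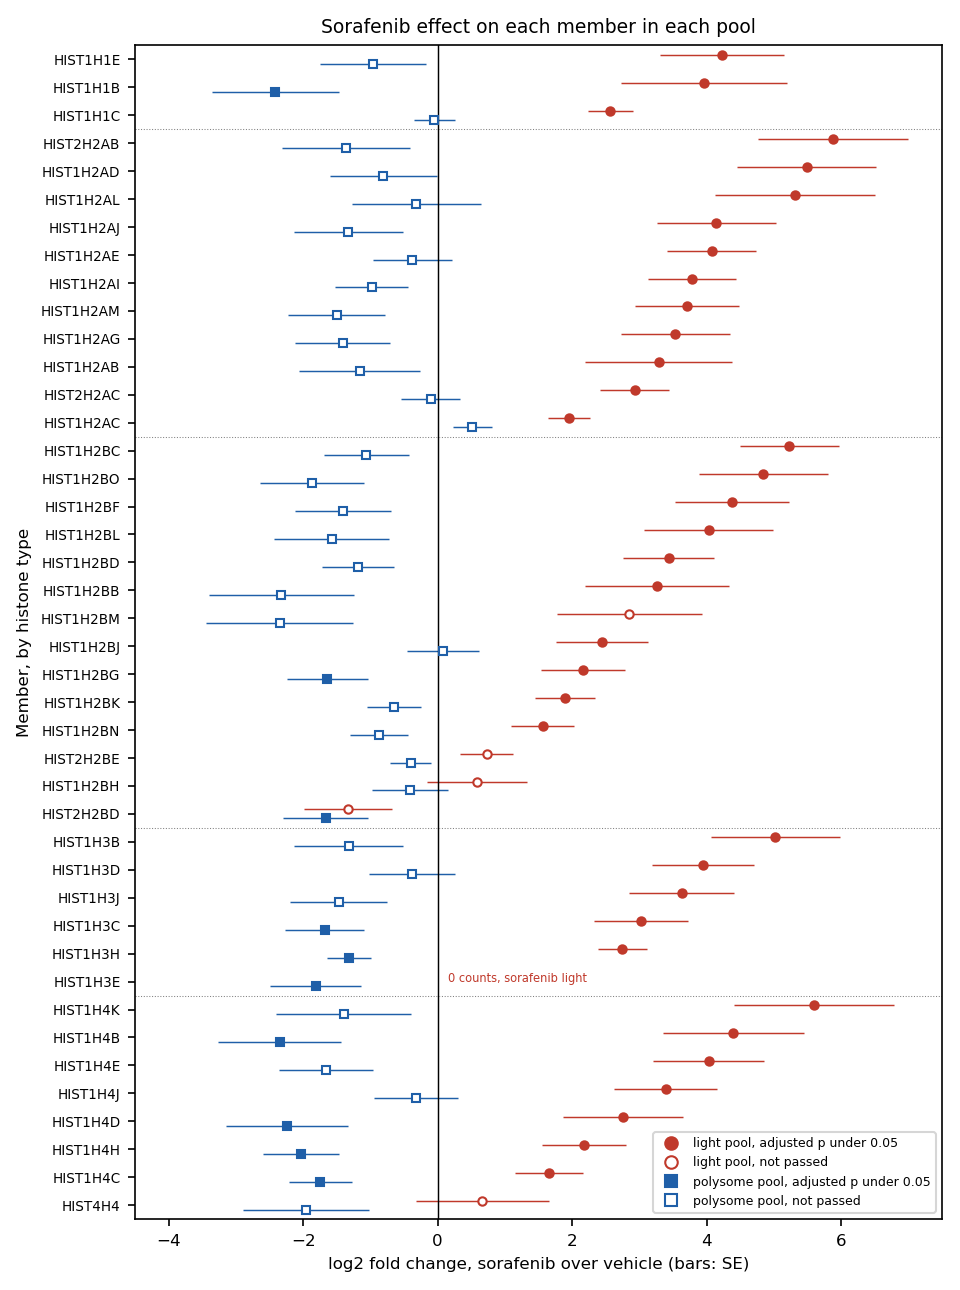
Log2 fold change of sorafenib over vehicle (points) with its SE (bars) for the members, grouped by type, in the light pool (circles) and the polysome pool (squares), with filled symbols where the edgeR adjusted p was under 0.05. Most light-pool values lie between 1.56 and 5.88, the polysome values lie between -2.41 and 0.52, and the light-pool value of HIST1H3E is left out because it had 0 counts in sorafenib light.

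The difference between these changes was tested as an interaction term, the sorafenib effect on polysomes minus the sorafenib effect in the light pool. It was negative and passed the edgeR test in 36 of 42 members (85.7%), where 10.7% of all genes tested were called in that direction, and its median was -4.73, against 0.02 over all genes. It was called positive in 0 members by edgeR, by DESeq2 and at an unadjusted p under 0.05, where 12.8% of all genes were called positive. Of the 31 members that passed the filter without the sorafenib light libraries 27 were called negative, and of the 11 others 9. Called members ranged from -7.24 for HIST2H2AB to -1.44 for HIST1H2AC on the log2 scale. HIST1H3H had the smallest p, at -4.07 ± 0.49 (edgeR adjusted p = 3.76e-05). Without both shallow libraries 23 members were called and the median was -3.90. Of the 19 calls among members named by rule 7 were then lost (HIST1H1E, HIST1H1B, HIST1H2AC, HIST1H2AL, HIST1H2BG, HIST1H3D and HIST1H4C, edgeR adjusted p from 0.0567 to 0.207). The comparisons share their libraries, so the same sorafenib light values enter the light-pool change, the interaction and the comparison of pools below.

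Within the cultures, the summed TMM-CPM of the members was lower on polysomes than in the light pool in every sorafenib culture. It was 79.6, 122 and 146 on polysomes and 794, 1307 and 462 in the light pool of sorafenib cultures 1, 2 and 3, ratios of 0.100, 0.0935 and 0.317. In vehicle cultures it was 110, 344 and 159 on polysomes and 141, 80.8 and 72.8 in the light pool, ratios of 0.780, 4.26 and 2.18. The ratios of the 2 treatments did not overlap, and vehicle culture 1, with the lowest polysome sum and the highest light sum of its group, had the lowest vehicle ratio. In sorafenib cultures 1, 2 and 3, 1, 2 and 1 of the 42 members were higher on polysomes than in the light pool. In vehicle cultures 8, 41 and 35 members were. The count of 8 and the ratio of 0.780 depend on the TMM scaling across pools. By library totals alone the members of vehicle cultures took 135, 407 and 196 CPM on polysomes, against 89.9, 55.5 and 47.5 in the light pool. In sorafenib cultures they stayed lower on polysomes by that measure, at 105, 160 and 206, against 656, 1368 and 396.

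By type, H4 had the ratios 0.0410, 0.0441 and 0.360 in sorafenib cultures, against 1.01, 4.21 and 3.67 in vehicle cultures. H3 had 0.0716, 0.0415 and 0.243, against 0.689, 6.84 and 2.66. H1 had 0.125, 0.132 and 0.424, against 0.696, 5.52 and 2.67. In these types culture 3 was the highest of the sorafenib cultures and culture 2 of the vehicle cultures. H2A had 0.146, 0.150 and 0.343, against 0.988, 2.80 and 1.88, and H2B had 0.107, 0.108 and 0.249, against 0.563, 3.32 and 1.42. The treatments did not overlap in any of the 5 types. The vehicle ratios below 1, all in culture 1, depend on the TMM scaling. By library totals H1 took 20.5 CPM on polysomes and 15.3 in the light pool there. H2A took 32.0 and 16.8, H2B 24.8 and 22.9, and H3 22.2 and 16.7.

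**Figure D4:**
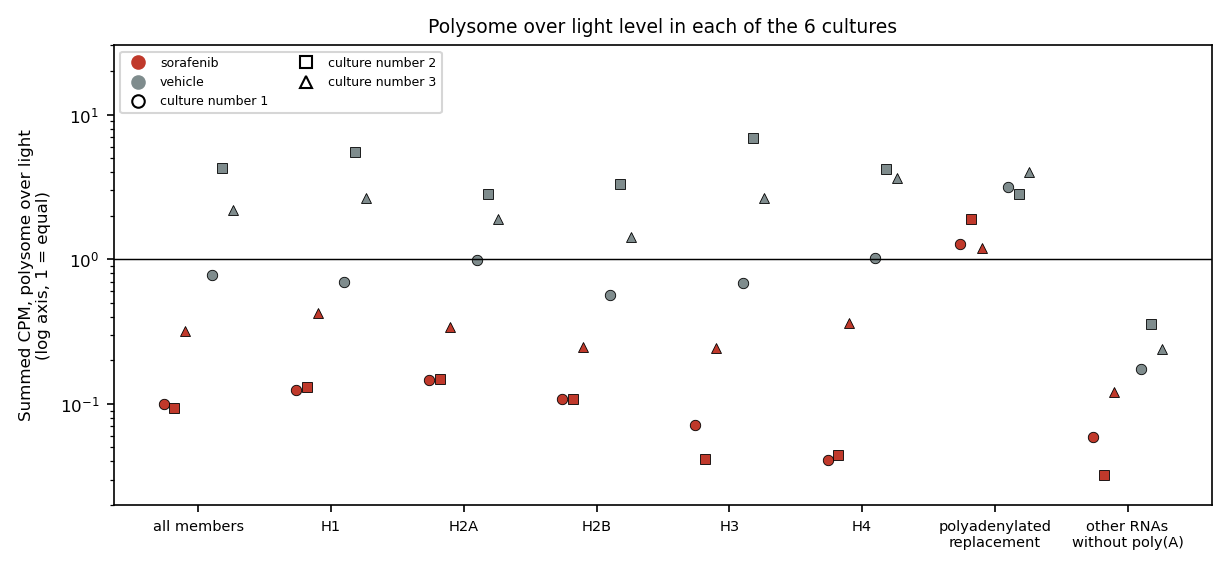
Polysome over light ratio of summed TMM-CPM in each culture, on a log axis, for each histone type, the replacement histones and other RNAs without a poly(A) tail. Sorafenib cultures lie between 0.0410 and 0.424 for the 5 histone types, vehicle cultures between 0.563 and 6.84, and the replacement histones are above 1 in all 6 cultures. Whether the histone types of vehicle culture 1 lie below 1 depends on the TMM scaling across pools.

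Gene by gene, 38 of 42 members were lower on polysomes than in the light pool of sorafenib cells by the edgeR test (90.5%), where 12.4% of all genes tested were, with a median log2 fold change of -3.42 against -0.00 over all genes. None was higher, by edgeR, by DESeq2 and at an unadjusted p under 0.05, where 13.4% of all genes were. HIST1H3H had the smallest p, at -2.99 ± 0.35 (edgeR adjusted p = 1.91e-05). Of the 31 members that passed the filter without the sorafenib light libraries 28 were called lower, and of the 11 others 10. Without the shallow libraries 15 members were called lower, with a median of -2.28, and 14 of the 20 calls among members named by rule were lost (edgeR adjusted p from 0.0530 to 0.483). In vehicle cells 7 members were higher on polysomes (16.7%), where 18.3% of all genes tested were, so this count is not a result about the members. They were HIST1H1C, HIST1H2BD, HIST1H2BO, HIST2H2BE, HIST1H3C, HIST1H3H and HIST1H4E. HIST2H2BD was lower, with 1.39, 1.42 and 0.761 TMM-CPM on vehicle polysomes, against 8.43, 4.39 and 5.60 in vehicle light, where 17.8% of all genes were called lower. The median in vehicle cells was 1.09, against -0.06 over all genes, but it was 2.17 without vehicle light library 1 and 0.70 without vehicle polysome library 2. The count of 7 became 28 when libraries were scaled by their totals alone, which moved the median of all genes to 0.82 and that of the members to 1.96, and it was 0, 2 and 3 without vehicle polysome library 2, vehicle light library 2 and vehicle light library 3. Without vehicle light library 1 or vehicle polysome library 1 it was 14 or 16.

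HIST2H2BE again stood apart. It had 6.72, 7.51 and 6.85 TMM-CPM on sorafenib polysomes, against 8.22, 5.61 and 7.47 in sorafenib light, a log2 fold change of -0.08 ± 0.37. In vehicle cells it had 5.62, 12.9 and 9.80 TMM-CPM on polysomes, against 2.86, 4.87 and 5.81 in the light pool, and was higher by 1.05 ± 0.33 (edgeR adjusted p = 0.0191). HIST1H2AC had the smallest called difference in sorafenib cells, -1.02 ± 0.30, which came to -0.50 without the shallow libraries (edgeR adjusted p = 0.438) and lost its call under 12 of 34 alternatives, with polysome over light ratios of 0.334, 0.620 and 0.465 in sorafenib cultures and 1.64, 1.26 and 1.21 in vehicle cultures.

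Several members lie head to head, and their 200-base windows overlap. There were 9 such pairs, sharing 153 to 178 bases. HIST1H2AD and HIST1H3D were each paired with HIST1H2BF through the same stretch, so these pairs rest on the same promoter region. The other HIST1H3D window overlaps no window of HIST1H2BF. HIST1H2BC and HIST1H2AC share 155 bases, as their sequences above show with the octamer on opposite strands, and had light-pool log2 fold changes of 5.23 ± 0.73 and 1.95 ± 0.31. HIST2H2BE and HIST2H2AC share 165 bases and had 0.73 ± 0.39 and 2.93 ± 0.51. The H2B gene had the higher value in the first of these pairs and the H2A gene in the other. HIST1H2BG and HIST1H2AE share 168 bases and had 2.16 ± 0.62 and 4.08 ± 0.66. HIST1H2BL and HIST1H2AI share 157 bases and had 4.03 ± 0.96 and 3.78 ± 0.65. HIST1H2BL passed the filter only with the sorafenib light libraries counted, where it is high, so its value was built in and the nearness of this pair is no support. The difference within a pair was not tested.

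Some members span more than 1000 bases in RefSeq, far beyond a histone coding sequence: HIST1H2BC, HIST1H2BD, HIST1H2BK, HIST1H3D, HIST1H3E and HIST2H2BE. Of these 6 genes 4 rose in the light pool (66.7%, against 11.7% of all genes tested) and 1 fell (16.7%, against 17.7%), with a median log2 fold change of 2.66. Of the 36 shorter members 32 rose (88.9%), with a median of 3.46. In sorafenib cells 4 of the 6 (66.7%) and 34 of the 36 (94.4%) were lower on polysomes, where 12.4% of all genes tested were. The 11 members that passed the filter only with the sorafenib light libraries counted are all among the shorter genes. For those that are high there a difference was built in, so these counts cannot compare longer with shorter members. The counts do not tell which transcript of a gene the reads came from.

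The replacement histones, taken from a list of 14 genes in the table of which 12 were tested, had smaller changes in the light pool than most clustered genes. In the light pool 5 rose (41.7%, against 11.7% of all genes) and 0 fell (against 17.7%) by edgeR, with a median log2 fold change of 0.49. H3F3B, which encodes the replacement histone H3.3, had 1310, 928 and 1159 TMM-CPM in sorafenib light, against 216, 291 and 268 in vehicle light, and rose by 2.13 ± 0.27 (edgeR adjusted p = 3.05e-05). H2AFJ, an H2A variant, had 64.0, 50.5 and 56.7 TMM-CPM, against 15.8, 13.9 and 13.5, and rose by 2.00 ± 0.22. The linker variants H1FX (1.66) and H1F0 (0.98) also rose, whereas H3F3A, the other H3.3 gene, had 0.20 ± 0.32 (edgeR adjusted p = 0.664). On polysomes 1 of the 12 rose (8.33%, against 20.9% of all genes) and 5 fell (41.7%, against 28.8%). H2AFZ, which encodes H2A.Z, fell by 1.11 and H2AFX, whose product marks DNA breaks when phosphorylated, fell by 1.67, both past the edgeR threshold. Their summed polysome over light ratios were 1.26, 1.88 and 1.19 in sorafenib cultures and 3.14, 2.80 and 3.99 in vehicle cultures, lower with sorafenib but above 1 in each culture.

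Among the factors that make and destroy histone mRNA, 9 of 48 rose (18.8%) and 7 fell (14.6%) in the light pool by edgeR, where 11.7% and 17.7% of all genes did. On polysomes 18 rose (37.5%) and 11 fell (22.9%), where 20.9% and 28.8% of all genes did. SLBP, which binds the stem-loop, had 105, 46.8 and 81.3 TMM-CPM in sorafenib light, against 61.1, 57.5 and 57.9 in vehicle light, and 114, 124 and 120 on sorafenib polysomes, against 104, 121 and 167 on vehicle polysomes. It passed the test in neither (log2 fold changes 0.44 ± 0.25 and -0.13 ± 0.24). The U7-associated LSM10 and LSM11 fell in the light pool by 1.62 and 2.05, and ZNF473, a zinc finger protein of the same machinery, fell by 1.13. LSM10 had 42.9, 11.2 and 44.8 TMM-CPM there, against 119, 113 and 104. Other genes of the list were higher, such as SNRPF, with 345, 208 and 295 TMM-CPM in sorafenib light, against 141, 152 and 140 in vehicle light. The decay factors UPF1 and TUT7, a uridylyltransferase, rose on polysomes by 1.77 and 2.48. UPF1 had 37.3, 38.1 and 47.0 TMM-CPM on sorafenib polysomes, against 11.6, 11.9 and 12.5. SNRPF was lower on polysomes, with 163, 218 and 164 TMM-CPM after sorafenib, against 505, 612 and 389 with vehicle. NPAT, a coactivator of histone transcription, its partner CASP8AP2 and ERI1 did not pass the test in either pool.

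Genes of DNA replication, which run in S phase with the histones, had a median near 0 in the light pool. There 5 of 46 rose (10.9%) and 6 fell (13.0%) by edgeR, where 11.7% and 17.7% of all genes did. The median log2 fold change was 0.10. On polysomes 22 rose (47.8%, against 20.9% of all genes) and 11 fell (23.9%, against 28.8%). PCNA, the replication clamp, had 269, 238 and 218 TMM-CPM in sorafenib light, against 181, 202 and 182 in vehicle light, and did not pass the test there (0.36 ± 0.23). On polysomes PCNA fell by 0.84 and MCM2, a subunit of the replicative helicase, rose by 2.55. RRM2, a subunit of ribonucleotide reductase, rose on polysomes by 0.93, and the cyclins CCNE1 and CCNE2, which start S phase, fell by 0.86 and 1.69. Histone chaperones gave 3 rises (9.38%) and 9 falls (28.1%) of 32 in the light pool, where 11.7% and 17.7% of all genes rose and fell. On polysomes they gave 16 rises (50%) and 4 falls (12.5%), where 20.9% and 28.8% of all genes did. Intronless polyadenylated mRNAs such as JUN and JUNB resemble histone mRNAs in lacking introns. They gave 2 rises (12.5%) and 4 falls (25%) of 16 in the light pool, against the same 11.7% and 17.7% of all genes. On polysomes they gave 6 rises (37.5%) and 2 falls (12.5%), against 20.9% and 28.8%.

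**Figure D5:**
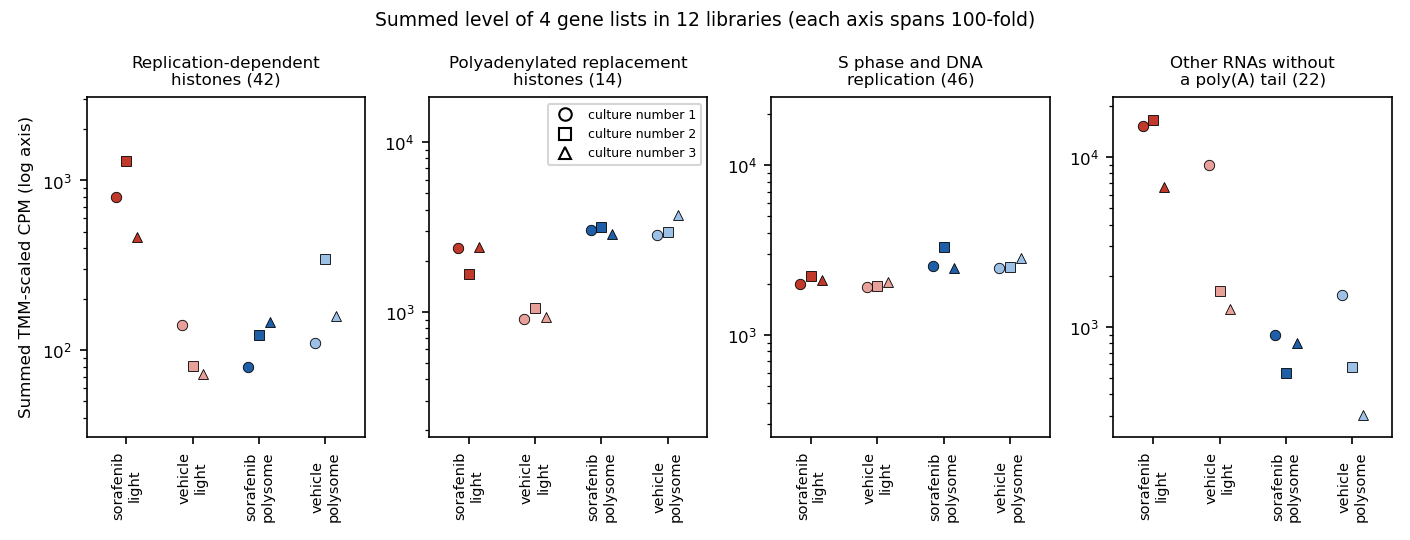
Summed TMM-CPM of each gene list in the 12 libraries, on a log axis, for the histone members, the replacement histones, the S phase genes and other RNAs without a poly(A) tail. The histone members and the other RNAs without a poly(A) tail have their highest 2 values in sorafenib light libraries 1 and 2, and the S phase genes stay between 1910 and 3297 in every library.

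Other RNAs without a poly(A) tail, such as the signal recognition particle RNA RN7SL1, the RNase P RNA RPPH1 and the small nucleolar RNA SNORD3A, were listed as a comparison because they share the missing tail. Of the 16 tested, 3 rose (18.8%, against 11.7% of all genes) and 1 fell (6.25%, against 17.7%) in the light pool by edgeR. The median log2 fold change was 1.45. Their summed level was 15185, 16623 and 6638 TMM-CPM in sorafenib light libraries 1, 2 and 3, against 8924, 1628 and 1266 in vehicle light. Sorafenib light libraries 1 and 2 and vehicle light library 1 were high for these RNAs as they were for the histones. SNORD3A had 89.2, 118 and 22.7 TMM-CPM, against 25.3, 1.34 and 4.36, and rose by 2.79 ± 0.67, and RN7SL1 rose by 2.08 ± 0.77 (edgeR adjusted p = 0.0472). RPPH1 had 1588, 1883 and 677, against 956, 40.8 and 38.6, and VTRNA1-2, a vault RNA, fell by 4.43. By edgeR 14 of the 16 were lower on polysomes than in the light pool of sorafenib cells (87.5%, against 12.4% of all genes), and 15 in vehicle cells (93.8%, against 17.8%). Their summed polysome over light ratios were 0.0592, 0.0320 and 0.121 in sorafenib cultures and 0.174, 0.356 and 0.239 in vehicle cultures. MALAT1, a long nuclear RNA on the list, made up 83.2% to 94.0% of the sorafenib polysome sums and 41.3% to 95.1% of the vehicle polysome sums, and was itself higher on polysomes in each sorafenib culture (ratios 2.31, 1.83 and 1.17) and in vehicle culture 1 (2.60), although it did not pass the test in either treatment. With MALAT1 left out, which was chosen after seeing the data, the ratios were 0.00366, 0.00209 and 0.0222 in sorafenib cultures and 0.00905, 0.354 and 0.159 in vehicle cultures. How far the recovery of RNAs without a tail differed between libraries, and its part in the histone values, was not tested.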

How the data were processed

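RNA from pooled gradient fractions of HepG2 cells was measured in 12 libraries, 4 groups of 3. The authors deposited a table of raw counts per gene, not normalized, and the submitters' processing notes name the genome build GRCh38.p12. Aligner, counter, annotation and use of strand: not given in the sources used here, so reads of antisense or near-identical genes cannot be told apart. Whether the libraries were poly(A)-selected, depleted of rRNA or primed at random is not stated either. This matters for RNAs without a poly(A) tail, and its part in the histone levels was not tested. Per the labels, the number in a title names the culture, and light and polysome libraries of one number and treatment come from the same culture. Where cultures are not independent, p-values reflect only how these libraries spread. The series' design text calls the experiment ribosome profiling, whereas the protocol in the labels makes libraries from RNA collected in the pooled fractions.

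The tests used edgeR 4.0.16 under R 4.3.3 (TMM scaling, filterByExpr on the 4 groups, quasi-likelihood test on all 12 libraries with no block). This left 14955 genes, and 42398 rows were not tested. The threshold was a Benjamini-Hochberg adjusted p of 0.05 over all genes tested, the common biological coefficient of variation was 0.245, and TMM factors ran from 0.637 to 1.41. Sorafenib light library 2 was the automatic TMM reference. Each SE was taken as the size of the log2 fold change divided by the root of the F statistic. "Rose" and "fell" mean past the threshold, relative to the other genes of a library and not in amount of RNA. The test was tried on simulated counts with 200 changed genes before use. Alternatives covered DESeq2 1.42.0, scaling, filters, blocks, depth and leaving out libraries. Figures were drawn with matplotlib 3.10.9. Library totals of 511065 to 13336689 counts set the precision.

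Deviations from the group means correlated at 0.05, 0.04 and 0.04 between the light and polysome libraries of sorafenib cultures 1, 2 and 3, and at 0.14, -0.07 and 0.33 in vehicle cultures. The pairing of the pools comes from the labels. Across treatments equal numbers name different cultures (-0.20 to 0.02).

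The members and gene lists were chosen with earlier results of these data known. Members named with statistics were the 3 per type with the highest summed count, the 3 with the smallest p and the highest and lowest log2 fold change in each comparison, and the neighbours of the limit of 50 counts. From the lists, fixed genes and the 2 with the smallest p per list and comparison could be named. Members outside this rule (HIST1H2BH, HIST1H2BM, HIST4H4, HIST1H2BL, HIST1H2AI, HIST1H2BN and HIST1H4J) were named with fitted values or correlations after their values were seen. All 42 members matched RefSeq by symbol or synonym. No coordinates of the table were used. Promoter windows come from RefSeq of GRCh38.p14.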

Additional observations from a re-analysis of the deposited data

Results flagged for a closer look

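In 19 members named with statistics, the sorafenib effect on polysomes differed from that in the light pool, by the interaction term of the edgeR fit (adjusted p under 0.05 over all genes tested). The values are the log2 fold change of sorafenib over vehicle on polysomes minus that in the light pool. Among H1 genes they were -2.62 for HIST1H1C, -5.19 for HIST1H1E and -6.37 for HIST1H1B. Among H2A genes they were -1.44 for HIST1H2AC, -3.03 for HIST2H2AC, -4.45 for HIST1H2AE, -7.24 for HIST2H2AB and -5.62 for HIST1H2AL. H2B genes had -3.80 for HIST1H2BG, -6.29 for HIST1H2BC and -4.62 for HIST1H2BD. H3 genes had -4.07 for HIST1H3H, -6.35 for HIST1H3B and -4.33 for HIST1H3D. H4 genes had -3.40 for HIST1H4C, -5.69 for HIST1H4E, -6.74 for HIST1H4B, -4.20 for HIST1H4H and -6.99 for HIST1H4K. HIST1H2AC, the member with the most counts, had the smallest of these differences, and HIST2H2AB, with few counts in vehicle light, the largest. HIST1H1B, HIST1H2AL and HIST1H4K passed the low-count filter only with the sorafenib light libraries counted, where they are high, so a difference that contains that group was built in for them and their values are no support. Without the shallow sorafenib light libraries 1 and 2, 7 of the 19 missed the threshold: HIST1H3D (0.0567), HIST1H4C (0.0617), HIST1H1E (0.0629), HIST1H2BG (0.0973), HIST1H2AL (0.108), HIST1H1B (0.111) and HIST1H2AC (0.207, each an edgeR adjusted p).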

How the results depend on the processing

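In the light pool, 36 members rose; 22 rose and 0 fell without both shallow sorafenib light libraries, 7 of 7 tested rose and 0 fell when all libraries were thinned to the smallest total, 29 to 37 rose and 0 to 2 fell with 1 library left out, and 0 fell in a fit of only the libraries compared. On polysomes 10 fell. The count was 3 with DESeq2 and with TMM within each fraction, 4 with library totals, with a filter of 10 counts and with vehicle polysome 2 or 3 or any sorafenib polysome library as TMM reference, and 5 with vehicle polysome 1 as reference. It was 6 of 29 tested in a fit of only the libraries compared, 2 of 7 tested after thinning, and 3 to 20 with 1 library left out. Without both shallow libraries the members' median was -1.09. One rise (1 of 42, against 0) appeared with TMM within each fraction, with 5 of the other TMM references (vehicle polysome 2 and 3 and each sorafenib polysome library), with no filter or that of 10 counts, without both shallow libraries, with only the libraries compared, and in some fits with 1 library left out (0 to 1).

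The interaction was negative in 36 members, in 23 without both shallow libraries, in 6 of 7 tested after thinning, and in 32 to 37 with 1 library left out. In sorafenib cells 38 were lower on polysomes, 15 without both shallow libraries, 7 of 7 after thinning and 32 to 38 with 1 library left out. In vehicle cells 7 were higher on polysomes, against 28 with library totals and 21 with TMM within each fraction. That count was 17 with no filter and 14 with that of 10 counts. It was 4 of 26 tested with only the libraries compared, 0 of 7 tested after thinning and 0 to 16 with 1 library left out. The 1 member lower on polysomes in vehicle cells was HIST2H2BD, and its call was the same under all 33 alternatives that tested it. The count of 0 without HIST1H3J and HIST2H2BD was thus fixed by leaving that gene out. After thinning it was 0 of the 7 members tested, and HIST2H2BD was not among them. With the replicate number as a block the counts were 37, 7, 37, 7 and 38 in the order light, polysome, interaction, vehicle cells and sorafenib cells, and with the culture as a block the last 3 were 36, 8 and 38. The members' mean share in sorafenib light was 526 CPM without library 2, against 807, and in vehicle polysomes 166 without library 2, against 246.

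Some list genes changed sign. Between vehicle pools with library totals, which move the median of all genes to 0.82, LSM11 had 0.84, RRM2 0.21, FIP1L1 0.74, CHAF1A 0.20, SUPT16H 0.81 and MCM3 0.012, and SUPT16H had 0.58 with TMM within each fraction. Between sorafenib pools with TMM within each fraction, CENPA had 0.72, CCNA2 0.57, CDT1 0.56 and GINS2 0.71. The cause was not tested. Thinning left 7 members tested, and few counts in sorafenib light library 2 limit all light-pool values.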
